A study of Mus musculus with 24 samples.

Results

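The 10 genes described here belong to the MHC class I antigen presentation pathway and were followed across all 24 libraries of a mouse brain study. They are the heavy chain genes H2-K1, H2-D1, H2-Q4, H2-T23 and H2-M3, the light chain gene B2m, the peptide transporter genes Tap1 and Tap2, the tapasin gene Tapbp and the regulator gene Nlrc5. Their symbols were matched to Ensembl gene identifiers among the 55421 genes of the deposited count table, and all 10 were found. Each library held 3′ tag counts from the left brain hemisphere of a 3-month-old mouse labelled C57BL/6J, a common inbred strain. The groups were Nox2 knockout mice injected with LPS, Nox2 knockout mice injected with PBS, wild type mice injected with LPS and wild type mice injected with PBS, with 6 animals in each. LPS, a lipopolysaccharide of the bacterial outer membrane (here from Salmonella abortus equi), was given into the peritoneum on 4 days at 1 µg per g body weight per day in 100 µl, and PBS in the same volume was the vehicle. The study's title places the work on gp91phox, the NADPH oxidase subunit that Nox2 denotes, under repeated systemic LPS.

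MHC class I molecules show peptides from inside a cell to CD8 T cells and to receptors on natural killer cells. The proteasome cuts proteins into peptides, the TAP transporter, made of Tap1 and Tap2, carries them into the endoplasmic reticulum, and tapasin holds the empty molecule beside TAP until a peptide fits. A heavy chain reaches the cell surface only together with beta-2 microglobulin, the product of B2m. In mouse, H2-K1 and H2-D1 encode the classical heavy chains, while H2-Q4, H2-T23 (the heavy chain of Qa-1) and H2-M3, which presents formylated peptides, are non-classical. Nlrc5 is the transactivator that binds class I promoters together with the factors of the SXY module, and interferons and NF-kB raise the same genes. In the healthy brain, neurons show little class I, and microglia and endothelium show more.

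Of the 10 genes, 8 lay within 3.36 Mb of chromosome 17 (GRCm38, 33915899 to 37274484), where the mouse H2 complex is, with B2m on chromosome 2 (122147686 to 122153083) and Nlrc5 on chromosome 8 (94434356 to 94527272). All 10 are annotated as protein coding in GENCODE M21. The promoters of 8 of the 10 genes were in the RefSeq table for GRCm38.p6. Printed here are those of the classical heavy chains and B2m, which carried the largest counts, together with that of H2-M3, which had the same kinds of motif matches as H2-K1 but was not called in any comparison below. Each is the 250 bases before the RefSeq start, 5′ to 3′ on the gene's strand. Capitals mark matches, on either strand, to an interferon-type element (GAANNGAAA, seen as its reverse complement), to the NF-kB motif, to the Y box (CCAAT, or ATTGG on the other strand) and to the letters TGACG of an X2-type site. The windows are chr17:34000348-34000597 (minus strand) for H2-K1, chr17:35262844-35263093 (plus strand) for H2-D1, chr17:37269984-37270233 (plus strand) for H2-M3 and chr2:122147437-122147686 (plus strand) for B2m.
H2-K1: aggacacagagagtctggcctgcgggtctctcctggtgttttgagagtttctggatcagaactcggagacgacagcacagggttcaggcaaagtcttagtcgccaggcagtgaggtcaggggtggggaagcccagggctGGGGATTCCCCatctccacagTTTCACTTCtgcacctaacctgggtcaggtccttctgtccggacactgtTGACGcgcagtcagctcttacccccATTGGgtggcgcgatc
H2-D1: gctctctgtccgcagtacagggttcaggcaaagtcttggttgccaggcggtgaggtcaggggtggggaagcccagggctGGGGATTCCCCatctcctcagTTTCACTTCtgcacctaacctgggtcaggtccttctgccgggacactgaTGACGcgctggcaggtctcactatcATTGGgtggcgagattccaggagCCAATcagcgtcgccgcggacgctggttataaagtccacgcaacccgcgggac
H2-M3: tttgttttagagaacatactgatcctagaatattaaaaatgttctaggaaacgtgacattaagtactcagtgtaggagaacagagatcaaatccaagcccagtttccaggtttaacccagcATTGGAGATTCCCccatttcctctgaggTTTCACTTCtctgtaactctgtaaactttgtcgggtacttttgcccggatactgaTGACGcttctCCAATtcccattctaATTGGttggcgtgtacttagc
B2m: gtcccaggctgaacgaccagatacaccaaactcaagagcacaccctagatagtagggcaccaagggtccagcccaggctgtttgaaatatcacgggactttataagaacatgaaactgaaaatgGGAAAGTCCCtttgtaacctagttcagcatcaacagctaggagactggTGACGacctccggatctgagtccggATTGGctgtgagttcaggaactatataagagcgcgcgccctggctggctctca

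H2-K1 and H2-D1 had the same NF-kB match, GGGGATTCCCC, followed by the same interferon-type match, TTTCACTTC. In H2-M3 the interferon-type match had the same letters, and the NF-kB match overlapped a Y box match. The interferon-type element as written, GAANNGAAA, was found in H2-K1, H2-D1, H2-Q4 and H2-M3, that is 4 of the 8 members with a promoter, and in 6.34% of the 27025 promoters of the table. B2m (gaaactgaaa, just before its NF-kB match) and H2-T23 (tttctctttc, on the other strand) held similar letters with a longer spacing. This pattern does not count them, and the share of promoters with the longer spacing was not counted. The NF-kB motif was found in those 4 and in B2m, against 7.01% of all promoters, and the same 4 members had both, against 0.389%. All 8 had a Y box match, against 34.5%, and 6 had TGACG, against 17.9%. Tap1, Tapbp and H2-T23 had neither an interferon-type nor an NF-kB match in this window. These matches describe letters only.

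Libraries held 2340184 to 5256169 counts, and depth did not differ between groups beyond the spread between animals (two-sided exact permutation tests, p from 0.435 to 0.978 in 4 comparisons). In the wild type LPS group, replicates 1 and 2 were more like each other than like any of the other 4. Their counts differed from those of replicates 3 to 6 by a chi-square of 2.88 to 4.74 per degree of freedom, against 1.83 between the pair, so results that rest on them are also given without them. Counts of Cybb, the gene of gp91phox, averaged 71.9 ± 4.50 CPM (a count divided by the library's total and scaled to 1000000, SD, n = 6) in the libraries labelled knockout LPS and 67.5 ± 5.08 in knockout PBS. They averaged 24.6 ± 8.07 CPM in wild type LPS and 1.48 ± 0.644 in wild type PBS. The 3′ tags were thus more abundant in the libraries labelled knockout. Which part of the gene was disrupted is not in the labels, so the counts are no check of genotype, and each genotype direction below is by label.

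Class I transcripts rose after LPS in both genotypes. In a single edgeR fit over the 14380 genes that passed a filter on low counts, 7 of the 10 members were tested. Of these, 6 were called higher after LPS in knockout mice (adjusted p under 0.05), where 7.05% of all genes tested were called higher and 3.82% lower. The same 6 were called higher in wild type mice, where 10.9% of all genes tested were called higher and 7.12% lower. They were H2-K1, H2-D1, B2m, Tap1, Tap2 and Tapbp. The median log2 fold change of the 7 members was 1.60 in knockout and 1.76 in wild type mice, beside a median over all genes tested of -0.002 in knockout and -0.009 in wild type. H2-M3 was tested and not called, and H2-Q4, H2-T23 and Nlrc5, with 94, 56 and 45 counts over the 24 libraries, did not pass the filter. In a fit of the PBS libraries alone 5 members passed it, and Tap1 was not among them. Tap1 was thus tested through its LPS libraries, and its call is not independent of the filter. In tissue RNA, more cells of a type and more RNA per cell cannot be told apart.

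**Figure D1:**
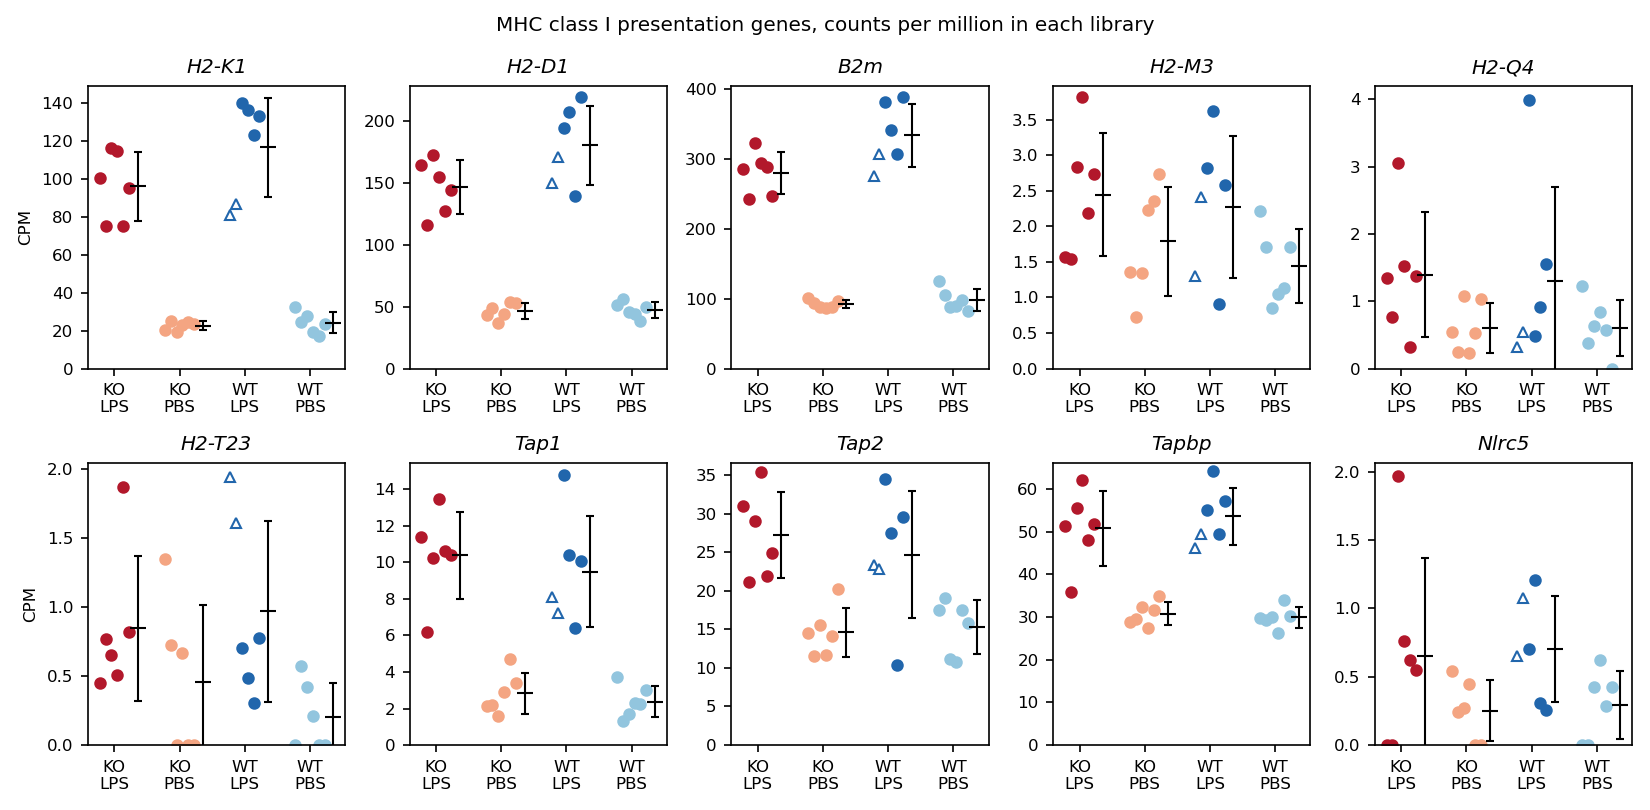
Level (CPM) of each of the 10 class I genes in each library (points), with the mean and SD of each group (bars, n = 6). Open triangles are wild type LPS replicates 1 and 2. For H2-K1, H2-D1, B2m, Tap1 and Tapbp, all LPS libraries lie above all PBS libraries in both genotypes, while H2-Q4, H2-T23, H2-M3 and Nlrc5 stay under 4 CPM with groups that overlap.

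H2-K1, the classical heavy chain K, had the largest fold change of the tested members in both genotypes. Its level after LPS in knockout mice was 75.0 to 117 CPM with a median of 97.9, against 19.4 to 24.8 CPM with a median of 23.3 after PBS. In wild type mice it was 81.2 to 140.0 CPM after LPS (median 128), against 17.01 to 32.6 CPM after PBS (median 24.02). No LPS library overlapped a PBS library of its genotype. The log2 fold change was 2.09 ± 0.13 in knockout mice (SE, adjusted p = 1.16e-16), a 4.26-fold rise. It was 2.27 ± 0.13 in wild type mice (adjusted p = 1.16e-18), a 4.81-fold rise.

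H2-D1, the classical heavy chain D, was 116 to 173 CPM after LPS in knockout mice (median 149.7), against 36.6 to 53.5 CPM after PBS (median 46.4). Wild type levels were 139.9 to 219 CPM after LPS (median 183), against 38.3 to 56.3 CPM after PBS (median 47.7). Again the LPS and PBS libraries did not overlap in either genotype. The log2 fold change was 1.67 ± 0.10 in knockout (adjusted p = 2.12e-17) and 1.92 ± 0.10 in wild type mice (adjusted p = 3.92e-20). Reads of the 2 classical genes can be confused in part. Of the 50-base windows in the last 300 bases of their transcripts, 9.54% of those of H2-K1 and 13.5% of those of H2-D1 also occurred in other genes, each most often in the other of the pair. How the authors treated reads with several matches is not given in the sources used here.

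B2m, the light chain shared by all class I molecules, had no window in common with another gene. Its level was 243 to 323 CPM after LPS in knockout mice (median 287), against 87.1 to 100.3 CPM after PBS (median 91.3). Wild type mice had 276 to 389 CPM after LPS (median 324), against 82.5 to 125 CPM after PBS (median 93.5). The groups were far apart relative to their spread. The rise was 3.03-fold in knockout (log2 fold change 1.60 ± 0.08, adjusted p = 3.69e-20) and 3.38-fold in wild type mice (1.76 ± 0.08, adjusted p = 2.63e-22).

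Within a library, the count of H2-K1 over that of H2-D1 was also higher on average after LPS. In knockout mice the ratio averaged 0.653 ± 0.0532 after LPS (SD, n = 6) and 0.491 ± 0.0355 after PBS, and the lowest LPS library, at 0.588, was above the highest PBS library, at 0.529. In wild type mice it averaged 0.652 ± 0.136 after LPS and 0.507 ± 0.0922 after PBS, and the groups overlapped. The summed count of both heavy chains over that of B2m averaged 0.867 ± 0.101 after LPS and 0.750 ± 0.0990 after PBS in knockout mice. It averaged 0.887 ± 0.0647 after LPS and 0.739 ± 0.117 after PBS in wild type mice, and here too the groups overlapped in both genotypes. These ratios were not tested.

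Both transporter genes rose after LPS, with a larger fold change for Tap1. Tap1 was 6.17 to 13.5 CPM after LPS in knockout mice (median 10.5), against 1.62 to 4.72 CPM after PBS (median 2.54). In wild type mice it was 6.40 to 14.8 CPM after LPS (median 9.09), against 1.33 to 3.70 CPM after PBS (median 2.28). Every LPS library was thus above every PBS library, at low counts of 16 to 63 after LPS and 6 to 18 after PBS. The log2 fold change of Tap1 was 1.89 ± 0.24 in knockout (adjusted p = 3.16e-08) and 2.06 ± 0.24 in wild type mice (adjusted p = 5.97e-09).

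Tap2 was 21.2 to 35.4 CPM after LPS in knockout mice (median 27.0), against 11.6 to 20.2 CPM after PBS (median 14.4). Wild type levels were 10.4 to 34.5 CPM after LPS (median 25.5), against 10.8 to 19.0 CPM after PBS (median 16.7). The wild type groups overlapped because replicate 5 of the LPS group, at 10.4 CPM, was below all 6 PBS libraries, while the other 5 were above them. The log2 fold change was 0.94 ± 0.17 in knockout (adjusted p = 7.24e-05) and 0.72 ± 0.17 in wild type mice (adjusted p = 0.00172). The count of Tap1 over that of Tap2 averaged 0.383 ± 0.0654 after LPS and 0.199 ± 0.0817 after PBS in knockout mice, and 0.405 ± 0.111 after LPS and 0.160 ± 0.0553 after PBS in wild type mice. Tap1 overlaps Psmb9 on the opposite strand (477 counts in all), and the strand setting of the counting is not given in the sources used here, so reads of the 2 genes cannot be told apart where they overlap.

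Tapbp, which encodes tapasin, had the smallest rise of the 6 in knockout mice. Its level was 35.8 to 62.2 CPM after LPS in knockout mice (median 51.6), against 27.5 to 34.9 CPM after PBS (median 30.6). In wild type mice it was 46.1 to 64.3 CPM after LPS (median 52.2), against 26.3 to 34.0 CPM after PBS (median 29.9). Groups did not overlap in either genotype. The rise was 1.67-fold in knockout (log2 fold change 0.74 ± 0.09, adjusted p = 3.80e-08) and 1.80-fold in wild type mice (0.85 ± 0.09, adjusted p = 5.68e-10). Tapbp overlaps Zbtb22 on the same strand (3626 counts in all), with which it shared 5.07% of its 3′ windows.

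Counted by library, 6 members had all LPS libraries above all PBS libraries in knockout mice, where 4.19% of the genes tested did so. In wild type mice 5 members did, all but Tap2 of those 6, beside 5.99% of the genes tested. Without wild type LPS replicates 1 and 2, the same 6 members were called higher in wild type mice, with log2 fold changes from 0.76 for Tap2 to 2.45 for H2-K1.

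**Figure D2:**
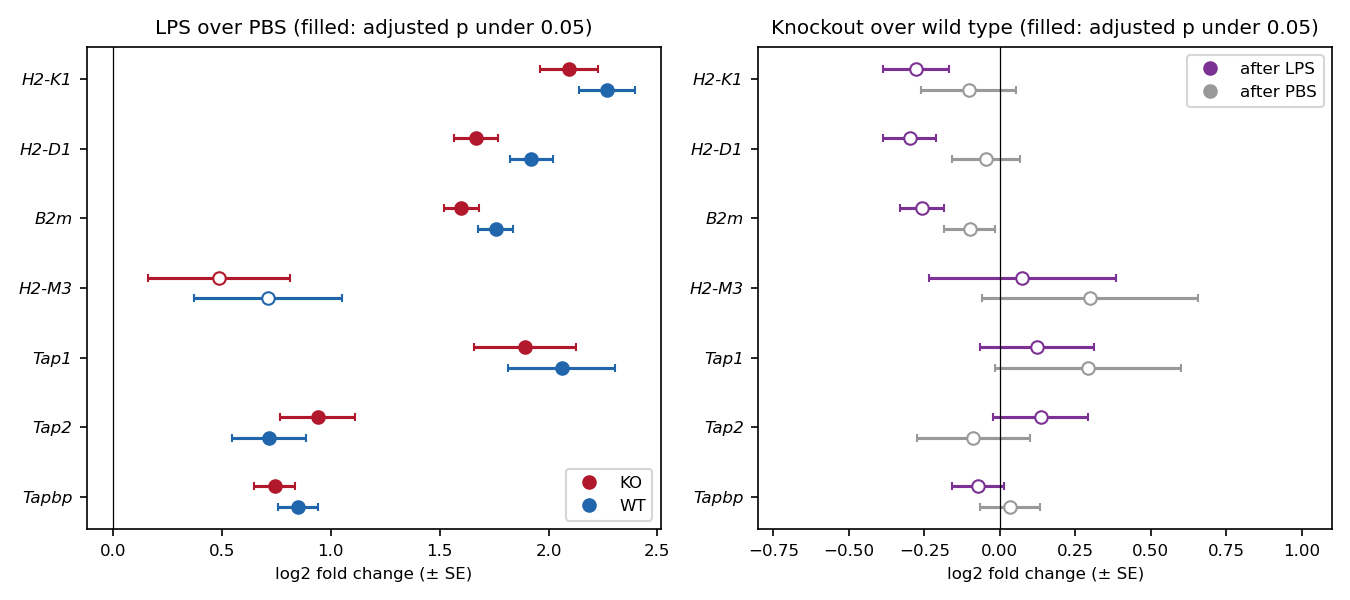
Log2 fold changes (± SE) of the 7 tested class I genes, LPS over PBS in knockout and wild type mice (left) and knockout over wild type after LPS and after PBS (right). Filled points have an adjusted p under 0.05. All but H2-M3 are filled on the left, between 0.72 and 2.27, and none is filled on the right, where all lie between -0.30 and 0.30.

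The non-classical heavy chains and Nlrc5 were near the limit of this depth. H2-M3 had 56 counts after LPS and 40 after PBS in knockout mice, and 53 after LPS and 35 after PBS in wild type mice. Per library this was 1.54 to 3.82 CPM after LPS (median 2.46) and 0.724 to 2.74 CPM after PBS (median 1.79) in knockout mice. In wild type libraries it was 0.914 to 3.63 CPM after LPS (median 2.498) and 0.846 to 2.22 CPM after PBS (median 1.42). The groups overlapped in both genotypes. Its log2 fold change was 0.49 ± 0.33 in knockout (95% interval -0.19 to 1.17, adjusted p = 0.424) and 0.71 ± 0.34 in wild type mice (0.00 to 1.42, adjusted p = 0.148). The intervals leave room for a rise as large as that of Tapbp.

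For genes that did not pass the filter, summed counts, scaled by the groups' summed totals, were compared with an exact 95% interval that covers counting error only. H2-T23 had 18 counts after LPS and 11 after PBS in knockout mice, a ratio of 1.66 (0.743 to 3.89). It had 21 after LPS and 6 after PBS in wild type mice, a ratio of 3.87 (1.51 to 11.7). In both genotypes 3 of the 6 PBS libraries had no H2-T23 count. H2-Q4 had 34 counts after LPS and 13 after PBS in knockout mice, a ratio of 2.66 (1.37 to 5.48), and 31 after LPS and 16 after PBS in wild type mice, a ratio of 2.14 (1.14 to 4.19). A single library, replicate 3 of the wild type LPS group, held 17 of those 31 counts, and replicate 3 of the knockout LPS group held 14 of the 34.

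The transactivator Nlrc5 had 16 counts after LPS and 6 after PBS in knockout mice, a ratio of 2.71 (1.01 to 8.45). It had 16 after LPS and 7 after PBS in wild type mice, a ratio of 2.53 (0.983 to 7.26). Of the knockout LPS counts, 9 came from replicate 3, and 2 libraries of that group had none. In the fit with no filter on low counts, over 32360 genes, none of these 3 genes was called in any comparison, and the smallest adjusted p was 0.0621, for H2-T23 in wild type mice after LPS. Of the 3′ windows of H2-Q4, 45.4% occurred in other genes, and of those of H2-T23, 50.6%, so counts of these 2 are uncertain. Nlrc5 and H2-M3 had no such windows.

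After PBS, class I levels did not differ detectably between genotypes. None of the 7 members was called for knockout against wild type after PBS, where 0.132% of all genes tested were called in either direction (0.0417% higher and 0.0904% lower), none had an unadjusted p under 0.05 in edgeR, and DESeq2 called none. B2m averaged 92.5 ± 5.39 CPM in knockout PBS and 98.1 ± 15.5 CPM in wild type PBS mice, a log2 fold change of -0.10 (95% interval -0.28 to 0.08, adjusted p = 0.803). For H2-K1 the interval was -0.43 to 0.23 around -0.10 (adjusted p = 0.913), and for H2-D1 it was -0.28 to 0.19 around -0.05 (adjusted p = 0.958). The interval of Tapbp was -0.17 to 0.24 around 0.03 (adjusted p = 0.963). The intervals of Tap1 (-0.35 to 0.93), Tap2 (-0.48 to 0.30) and H2-M3 (-0.45 to 1.05) were wider. All 7 members had overlapping groups. Of all genes tested, 0.257% had every knockout library above every wild type library, and 0.174% had every one below.

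After LPS, H2-K1, H2-D1 and B2m were lower on average in knockout than in wild type mice, but not past the threshold. None of the 7 members was called for knockout against wild type after LPS, where 1.05% of all genes tested were called in either direction (0.264% higher and 0.786% lower). The 3 had an unadjusted p under 0.05, as did 11.4% of all genes tested, and DESeq2 called no member. B2m averaged 280.0 ± 30.4 CPM in knockout LPS and 334 ± 44.9 CPM in wild type LPS mice, a log2 fold change of -0.26 ± 0.07 (95% interval -0.41 to -0.11, adjusted p = 0.0653). H2-D1 averaged 147 ± 21.7 CPM in knockout LPS and 180.5 ± 31.9 CPM in wild type LPS mice, a log2 fold change of -0.30 ± 0.09 (-0.48 to -0.11, adjusted p = 0.0862). H2-K1 averaged 96.2 ± 18.3 CPM in knockout LPS and 117 ± 26.1 CPM in wild type LPS mice, a log2 fold change of -0.28 ± 0.11 (-0.50 to -0.05, adjusted p = 0.271). For each of the 3, all 6 knockout libraries were below the wild type mean, 2 were below every wild type library, and the groups overlapped. Over all genes tested, 0.313% had every knockout library above every wild type library after LPS, and 0.355% had every one below.

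This difference depended on which libraries entered. Wild type LPS replicates 1 and 2 had the lowest H2-K1 levels of their group, 81.2 and 86.8 CPM, against 123 to 140.0 CPM in the other 4. Without both, the 3 genes were called lower in knockout mice, H2-K1 at -0.46 ± 0.10 (adjusted p = 0.00226), H2-D1 at -0.37 ± 0.09 (adjusted p = 0.0132) and B2m at -0.34 ± 0.07 (adjusted p = 0.00269). In that fit 561 genes were called between genotypes after LPS, against 151 with all libraries. Leaving out a single library gave adjusted p-values from 0.0131 to 0.227 for B2m, from 0.0201 to 0.280 for H2-D1 and from 0.0575 to 0.527 for H2-K1. B2m was called in 5 of these 24 fits (without knockout LPS replicate 3, wild type LPS replicate 1, 2 or 5, or wild type PBS replicate 1) and H2-D1 in 2 (without wild type LPS replicate 1 or 5). The direction was the same in all of them.

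**Figure D3:**
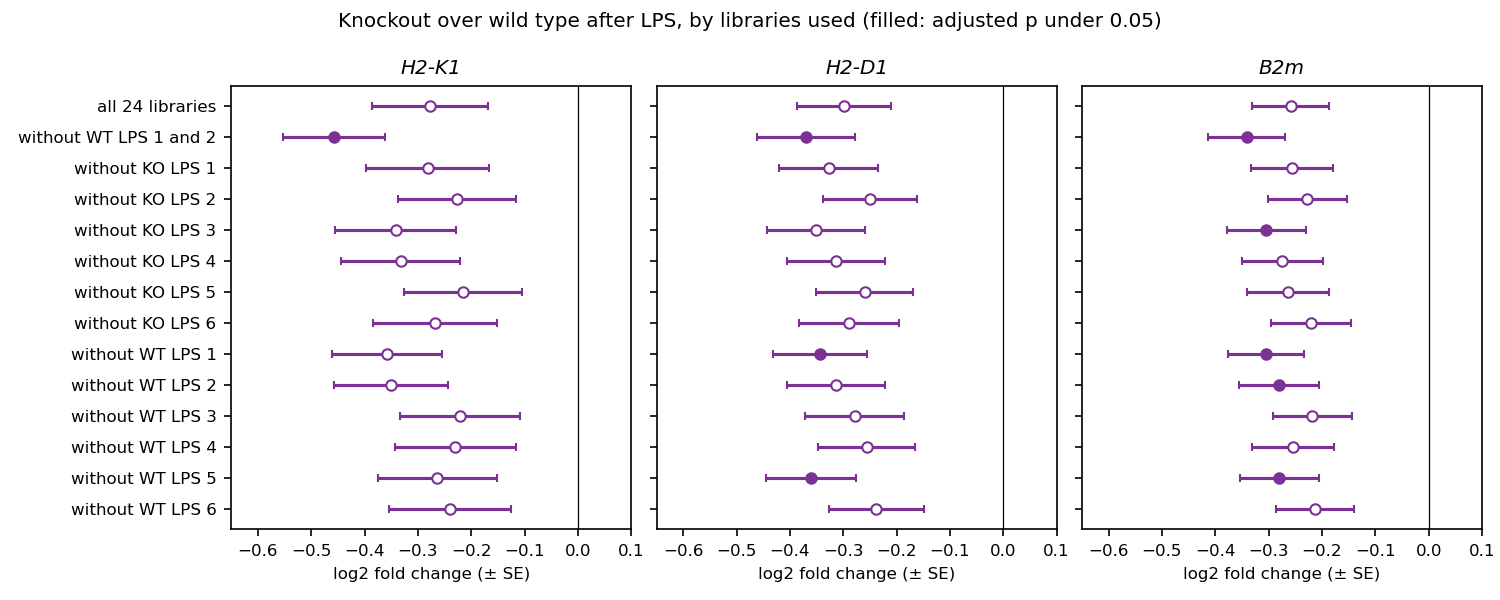
Knockout over wild type after LPS for H2-K1, H2-D1 and B2m, as log2 fold changes (± SE), in the fit of all 24 libraries, in the fit without wild type LPS replicates 1 and 2, and in the fits without each LPS library in turn. Filled points have an adjusted p under 0.05. All points lie below 0, from -0.46 to -0.21, and all 3 genes are filled in the fit without replicates 1 and 2.

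For Tap1, Tap2 and Tapbp, no difference between knockout and wild type mice was detected after LPS. Tap1 averaged 10.4 ± 2.39 CPM in knockout and 9.50 ± 3.03 CPM in wild type mice (log2 fold change 0.12, 95% interval -0.27 to 0.52, adjusted p = 0.872). Tap2 averaged 27.3 ± 5.57 CPM in knockout and 24.7 ± 8.25 CPM in wild type mice (0.14, -0.19 to 0.46, adjusted p = 0.813). Tapbp averaged 50.8 ± 8.76 CPM in knockout and 53.6 ± 6.65 CPM in wild type mice (-0.07, -0.25 to 0.11, adjusted p = 0.816). None of these differences was larger than the spread between animals, and for H2-M3 it was 0.07 (-0.57 to 0.72, adjusted p = 0.965). For the genes below the filter, the ratios of knockout over wild type after LPS were 1.09 for H2-Q4 (95% interval 0.652 to 1.84), 0.855 for H2-T23 (0.429 to 1.68) and 0.997 for Nlrc5 (0.467 to 2.13).

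The LPS response itself was not shown to differ between genotypes. The interaction, which is the log2 fold change of LPS in knockout minus that in wild type, called none of the 7 members and 0.00695% of all genes tested, and with all 24 libraries no member had an unadjusted p under 0.05 or was called by DESeq2. It was -0.17 for H2-K1 (95% interval -0.58 to 0.23, adjusted p = 0.818), -0.25 for H2-D1 (-0.55 to 0.05, adjusted p = 0.588) and -0.16 for B2m (-0.39 to 0.08, adjusted p = 0.685). It was negative for 6 of the 7 members, and positive for Tap2, at 0.22 (-0.29 to 0.73, adjusted p = 0.816). Both LPS comparisons and the interaction use the same libraries. With a single library left out, the interaction ranged from -0.2762 (without wild type PBS replicate 1) to -0.0987 (without wild type PBS replicate 4) for H2-K1, from -0.3157 to -0.1917 for H2-D1 and from -0.239 to -0.1123 for B2m. Without wild type LPS replicates 1 and 2 it was -0.3538 ± 0.1605 for H2-K1 (unadjusted p = 0.0328, adjusted p = 0.281), -0.3238 ± 0.1425 for H2-D1 (unadjusted p = 0.028, adjusted p = 0.262) and -0.2405 ± 0.1066 for B2m (unadjusted p = 0.0291, adjusted p = 0.266). No member was called in that edgeR fit, where 249 of 14684 genes were.

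Markers of several cell types differed between the same groups. The summed level of 8 microglia markers was 354.5 to 481 CPM after LPS and 219 to 248 CPM after PBS in knockout mice, and 415.5 to 553 CPM after LPS and 220.5 to 270.0 CPM after PBS in wild type mice. That of 7 endothelium markers was 412 to 463 CPM after LPS and 209 to 264 CPM after PBS in knockout mice, and 453 to 533 CPM after LPS and 232 to 258 CPM after PBS in wild type mice. That of 7 monocyte and border macrophage markers was 102 to 147 CPM after LPS and 13.2 to 21.5 CPM after PBS in knockout mice, and 130.3 to 238 CPM after LPS and 8.79 to 25.6 CPM after PBS in wild type mice. In all 3 lists and both genotypes the LPS and PBS libraries did not overlap.

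By gene, 5 of 8 microglia markers, 6 of 7 endothelium markers and all 6 tested monocyte and border macrophage markers were called higher after LPS in knockout mice. For wild type mice, 6 of 8 microglia markers were called higher and 1 lower, with all 7 endothelium and all 6 tested monocyte and border macrophage markers higher. Of all genes tested, 7.05% were called higher in knockout mice, and 10.9% higher and 7.12% lower in wild type mice. Ccr2 and Ms4a7 passed the filter only through their LPS libraries, with 14 and 17 counts after PBS in knockout and 8 and 16 in wild type mice. Cd163 was also low after PBS, at 33 counts in knockout and 43 in wild type mice. The calls of Ccr2 and Ms4a7 are not independent of the filter, and that of Cd163 may not be. Of all genes tested, 0.786% were called lower and 0.264% higher in knockout than in wild type mice after LPS. In that comparison, 2 of 8 microglia markers (Cx3cr1 and Sall1), 2 of 7 endothelium markers (Cldn5 and Pecam1) and 1 of 6 tested monocyte and border macrophage markers (Lyz2) were called lower and none higher, all named after their values were seen. The others were not called, and their log2 fold changes ran both ways among microglia and endothelium markers, up to 0.58 for Siglech (adjusted p = 0.177) and 0.06 for Ly6c1 (adjusted p = 0.788). The median log2 fold change was -0.17 for the microglia, -0.36 for the endothelium and -0.46 for the monocyte and border macrophage list, beside -0.004 over all genes tested. Wild type LPS replicates 1 and 2 had the lowest microglia sums of their group, 415.5 and 423 CPM, and the lowest monocyte and border macrophage sums, 159 and 130.3 CPM. Neutrophil markers summed to 90.3 to 397 CPM after LPS and 8.65 to 40.9 CPM after PBS in knockout mice, and to 122 to 706 CPM after LPS and 8.14 to 19.0 CPM after PBS in wild type mice. Among erythrocyte markers, Hba-a1 and Hba-a2 passed the filter only through their PBS libraries. They had 30 and 23 counts after LPS in knockout and 7 and 11 in wild type mice. Their calls are thus not independent of the filter. Of all genes tested, 3.82% were called lower after LPS in knockout and 7.12% in wild type mice. All 4 tested erythrocyte markers were called lower after LPS in both genotypes. The 5 listed summed to 2.46 to 55.9 CPM after LPS and 35.9 to 361 CPM after PBS in knockout mice, and 0.974 to 18.3 CPM after LPS and 27.9 to 80.2 CPM after PBS in wild type mice, with LPS and PBS ranges that overlapped in knockout mice and not in wild type mice. The part of these shifts in the class I levels was not tested.

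**Figure D4:**
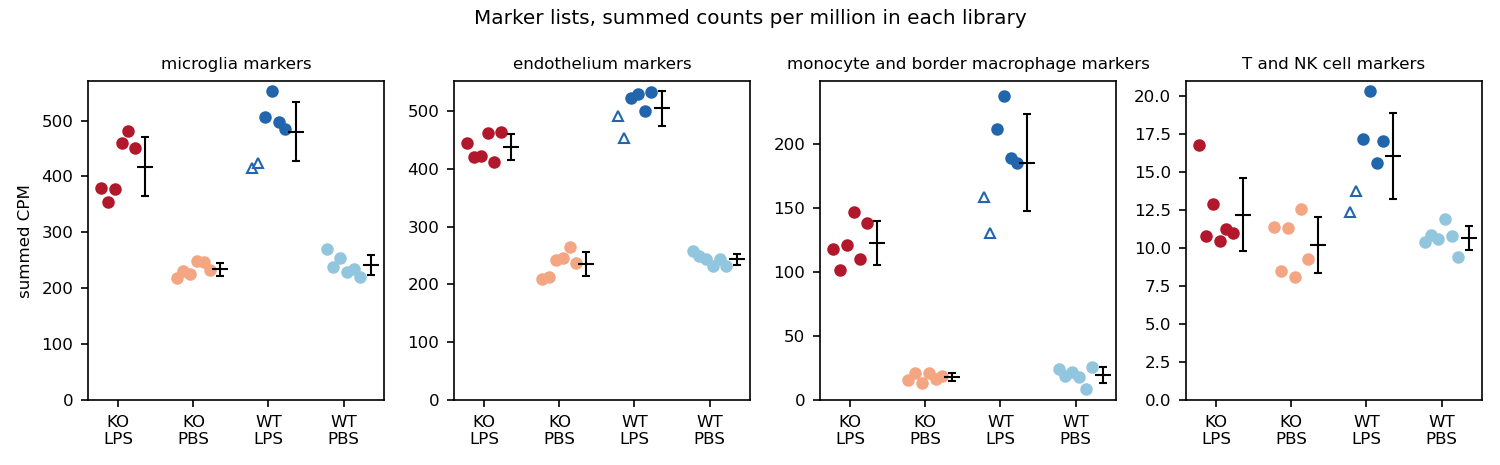
Summed CPM of 4 marker lists in each library (points), with the mean and SD of each group (n = 6). Open triangles are wild type LPS replicates 1 and 2. LPS libraries lie above PBS libraries for the microglia, endothelium and monocyte and border macrophage lists, while the T and NK cell groups overlap in knockout mice and not in wild type mice.

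Among T and NK cell markers, transcripts of the CD8 and CD3 chains were scarce, while those of T cell receptor constant regions were counted in every library. Over the 24 libraries, Cd8a, which encodes a chain of the co-receptor that binds class I, had 9 counts and Cd8b1 had 5, and Cd3d, Cd3e and Cd3g, which encode the CD3 chains of the T cell receptor complex, had 15, 5 and 4. Trbc2, the constant region gene of a T cell receptor beta chain, had 731 counts and was not called after LPS, at -0.26 ± 0.16 on the log2 scale in knockout (adjusted p = 0.382) and -0.15 ± 0.15 in wild type mice (adjusted p = 0.553). Trac, that of the alpha chain, had 26 counts after LPS and 35 after PBS in knockout mice, and 37 after LPS and 40 after PBS in wild type mice, and was not tested. Gzma, a granule protease of cytotoxic lymphocytes that is named after its values were seen, had 70 counts after LPS and 2 after PBS in knockout mice, and 96 after LPS and 0 after PBS in wild type mice. The summed level of the 11 T and NK cell markers was 10.4 to 16.8 CPM after LPS and 8.06 to 12.6 CPM after PBS in knockout mice, and 12.3 to 20.3 CPM after LPS and 9.40 to 11.9 CPM after PBS in wild type mice. B cell markers summed to at most 1.88 CPM in every library but 1, a knockout LPS library at 17.7 CPM. Neuron markers summed to 4107 to 4382 CPM after LPS, against 4651 to 4891 CPM after PBS in knockout mice, and to 3937 to 4252 CPM after LPS, against 4626 to 4851 CPM after PBS in wild type mice.

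Around the 10 genes, the rest of the pathway was covered by 7 lists with 49 tested genes. Of these, 13 were called higher after LPS in knockout and 19 in wild type mice, 12 of them in both, and none was called lower in either. In a fit of the PBS libraries alone 45 pathway genes passed the filter. Pirb and Procr, counted in both genotypes, were tested only through their LPS libraries. Procr averaged 1.60 CPM after PBS in knockout and 1.69 CPM in wild type mice, below Tap1, at 2.83 and 2.38 CPM. The other genes that did not pass in that fit are not named here, so further calls may not be independent of the filter. The shares of all genes tested that were called higher were 7.05% in knockout and 10.9% in wild type mice, as above. None was called between genotypes after either injection or in the interaction by edgeR or DESeq2. At an unadjusted p under 0.05 there were 8 of the 49 between genotypes after LPS, 6 after PBS and 4 in the interaction, beside 11.4%, 8.73% and 9.78% of all genes tested, so these counts were near the background. A gene called in only 1 genotype is therefore not shown to respond differently there.

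Genes of peptide supply rose in part. Of 11 tested, 3 were called higher in knockout and 4 in wild type mice, and the list's median log2 fold change was 0.10 in both. Psmb8 and Psmb9 encode catalytic subunits of the immunoproteasome. Psmb8 averaged 14.6 ± 3.09 CPM after LPS and 4.33 ± 0.858 CPM after PBS in knockout mice, and 16.0 ± 4.11 CPM after LPS and 3.80 ± 1.34 CPM after PBS in wild type mice. Its log2 fold change was 1.78 ± 0.20 in knockout (adjusted p = 2.04e-09) and 2.06 ± 0.20 in wild type mice (adjusted p = 1.68e-11). Psmb9 rose by 1.40 ± 0.27 in knockout (adjusted p = 0.000178) and 1.49 ± 0.27 in wild type mice (adjusted p = 3.76e-05) on the log2 scale. The proteasome activator subunit Psme1 rose by 0.44 ± 0.08 in knockout and 0.45 ± 0.08 in wild type mice, and Blmh, a cytosolic peptidase, was called in wild type mice at 0.27 ± 0.06. Psmb10, the third immunoproteasome subunit, was not called, at 0.23 ± 0.08 in knockout (adjusted p = 0.0811) and 0.20 ± 0.09 in wild type mice (adjusted p = 0.0999).

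Of the 7 genes of loading and trimming, none was called in knockout mice and 3 in wild type mice. Erap1, which trims peptides in the endoplasmic reticulum, Tapbpl, a tapasin-related editor, and Pdia3, a partner of tapasin, were called higher in wild type mice. On the log2 scale the LPS difference of Erap1 was 0.23 ± 0.20 in knockout mice (adjusted p = 0.589) and 0.67 ± 0.20 in wild type mice (adjusted p = 0.0146). That of Tapbpl was 0.35 ± 0.17 in knockout and 0.50 ± 0.17 in wild type mice (adjusted p = 0.201 and 0.0327), and that of Pdia3 was 0.02 ± 0.07 in knockout and 0.24 ± 0.07 in wild type mice (adjusted p = 0.904 and 0.00746). The chaperone genes Calr and Canx lay between -0.11 and -0.03 on the log2 scale in both genotypes and were not called. The medians of this list were 0.02 in knockout and 0.15 in wild type mice.

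Only H2-T22 of the 14 other class I heavy chains was tested, and it was not called, at 0.43 ± 0.17 in knockout (adjusted p = 0.126) and 0.27 ± 0.17 in wild type mice (adjusted p = 0.310). H2-Q7, a Qa-2 heavy chain below the filter, is named after its values were seen. It had 62 counts after LPS and 5 after PBS in knockout mice, a ratio of 12.6 (exact 95% interval 5.11 to 40.1), and 57 after LPS and 2 after PBS in wild type mice, a ratio of 31.5 (8.33 to 266). With no filter on low counts it was called higher in both genotypes (adjusted p = 2.65e-08 in knockout and 2.19e-10 in wild type mice). Sequence shared with other genes was not measured for H2-Q7, so its counts may hold reads of other heavy chain genes. Of 5 tested class I-like molecules, 3 were called higher in both genotypes, with a list median of 0.67 in knockout and 0.71 in wild type mice. These were Hfe, a regulator of iron uptake (0.96 ± 0.21 in knockout, 1.45 ± 0.20 in wild type), Fcgrt, the neonatal Fc receptor (0.67 ± 0.14 in knockout, 0.71 ± 0.13 in wild type), and Procr, the endothelial protein C receptor (1.28 ± 0.27 in knockout, 1.16 ± 0.27 in wild type). Procr passed the filter only through its LPS libraries, so its call is not independent of the filter.

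**Figure D5:**
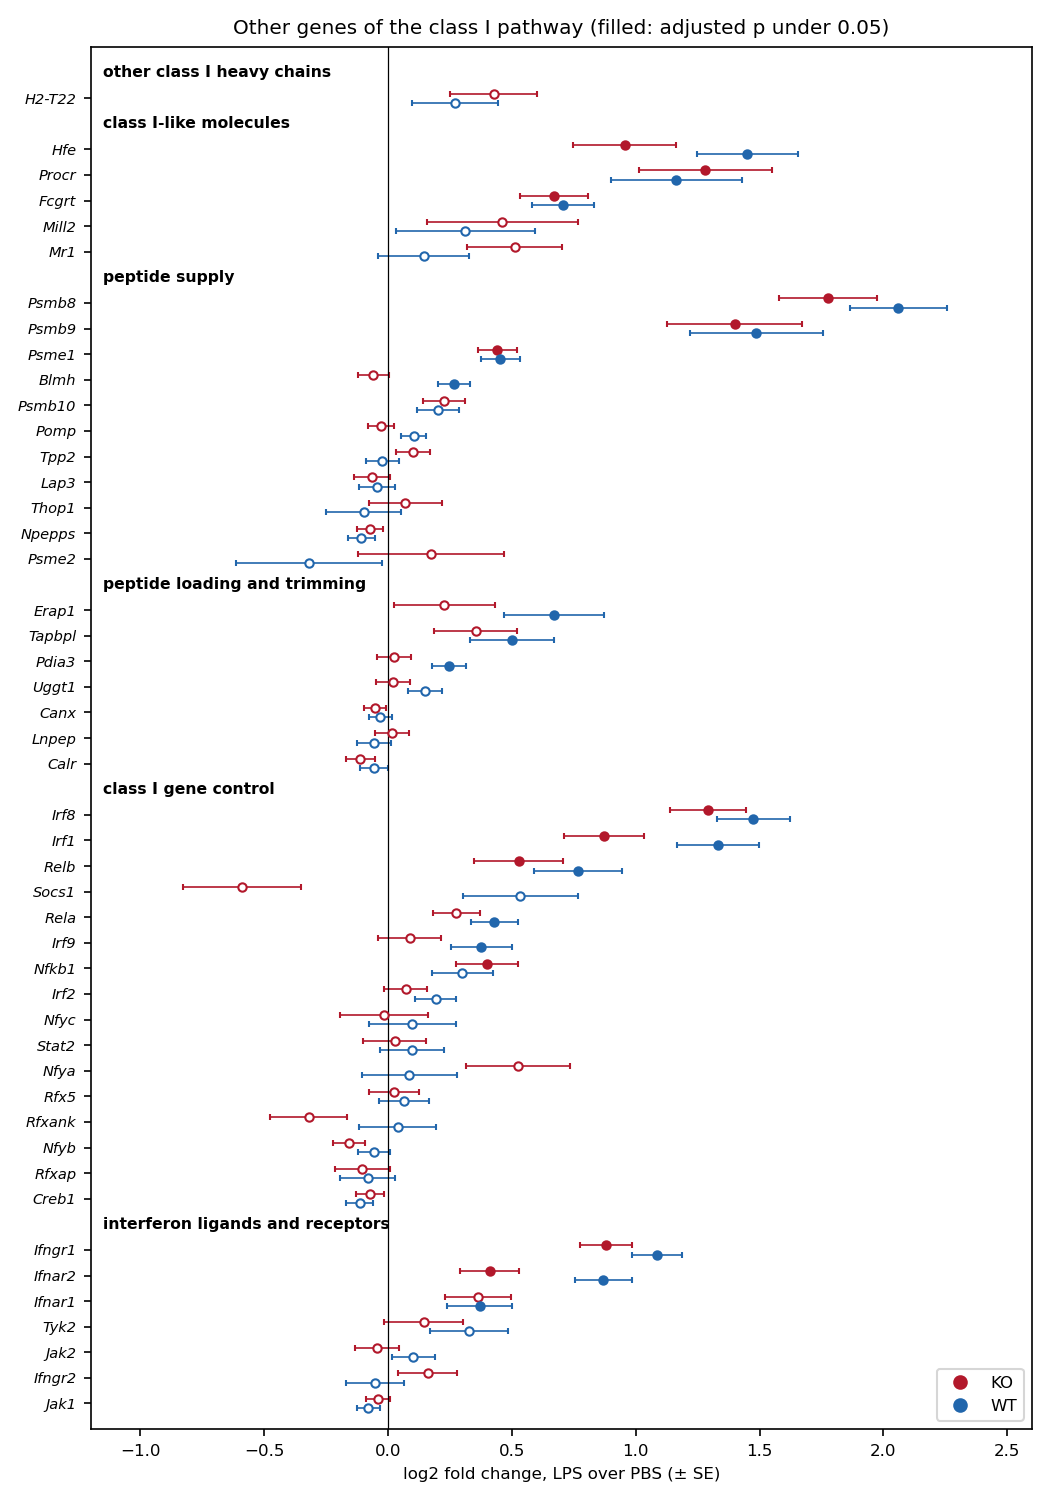
Log2 fold changes (± SE) of LPS over PBS in knockout and wild type mice for 47 of the 49 tested genes of the class I pathway outside the 10 members, by list; filled points have an adjusted p under 0.05. Pirb, at 4.53 in knockout and 4.85 in wild type, is outside the axis and not drawn, and 1 uncalled gene is not shown. In wild type mice Psmb8, Psmb9, Irf8, Hfe, Irf1 and Procr have the largest filled values drawn, and none of the filled points is below 0. Procr passed the filter only through its LPS libraries.

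Among 17 tested genes that control class I transcription, 4 were called higher in knockout and 5 in wild type mice, and the list's median was 0.07 in knockout and 0.19 in wild type mice. Irf1, an interferon-induced activator that binds the interferon-type element, rose by 0.87 ± 0.16 in knockout (adjusted p = 8.00e-05) and 1.33 ± 0.16 in wild type mice (adjusted p = 1.60e-08). Irf8, a factor of myeloid cells and microglia, rose by 1.29 ± 0.15 in knockout (adjusted p = 1.12e-08) and 1.47 ± 0.15 in wild type mice (adjusted p = 6.13e-11). The NF-kB subunit Relb rose by 0.53 ± 0.18 in knockout and 0.77 ± 0.18 in wild type mice. Nfkb1 was called in knockout mice (0.40 ± 0.13) and not in wild type mice (0.30 ± 0.12, adjusted p = 0.0903), while Rela and Irf9 were called in wild type mice. The genes of the RFX complex, Rfx5, Rfxap and Rfxank, with which Nlrc5 acts, were not called.

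The interferon genes listed were at or near 0 counts. Ifng had 2 counts and Ifnb1 none over the 24 libraries. Of the 7 tested genes of that list, which are receptor chains and the receptor-bound kinases Jak1, Jak2 and Tyk2, 2 were called higher in knockout and 3 in wild type mice, with a median of 0.16 in knockout and 0.33 in wild type mice. The receptor chain genes Ifngr1 and Ifnar2 were called higher in both genotypes, Ifngr1 at 0.88 ± 0.10 in knockout (adjusted p = 1.09e-08) and 1.09 ± 0.10 in wild type mice (adjusted p = 5.18e-12), and Ifnar2 at 0.41 ± 0.12 in knockout and 0.87 ± 0.12 in wild type mice. Of the 10 genes listed under receptors that read class I, 1 was tested. This was Pirb, an inhibitory receptor for class I on myeloid cells and neurons of mouse, with 109 counts after LPS and 4 after PBS in knockout mice, and 203 after LPS and 7 after PBS in wild type mice. Pirb passed the filter only through the LPS groups, where it was high, so its call is not independent of the filter. The log2 fold change of Pirb was 4.53 ± 0.53 in knockout (adjusted p = 5.90e-09) and 4.85 ± 0.42 in wild type mice (adjusted p = 8.41e-13). After LPS it was -0.93 ± 0.25 for knockout against wild type (adjusted p = 0.0527).

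The genes whose profile over the 24 libraries was most like that of the classical heavy chains and B2m were found by the root mean square difference of centred log2 CPM among 14276 tested genes. For H2-K1 they were Ifitm3 (0.197), Cp (0.198), C1qc (0.224), C1qa (0.230) and Apod (0.254). For H2-D1 they were C1qc (0.219), Pglyrp1 (0.222), C1qb (0.233), Ly6a (0.237) and Anxa2 (0.241). For B2m they were C1qb (0.163), C1qc (0.206), Adgrl4 (0.208), Ly6a (0.210) and Fn1 (0.212). All of these rose with LPS in both genotypes, by 1.45 to 2.40 on the log2 scale, and the likeness is a description of the same libraries.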

How the data were processed

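The deposited table holds raw counts of 3′ tags per Ensembl gene, which the authors made from QuantSeq 3′ mRNA libraries of 100 ng total RNA. Their processing, per the submitters' processing notes, named the build mm10 (GRCm38), DESeq2 1.26.0 in R 3.6.1, Subread 2.0.0 with featureCounts, the aligner STAR 2.7.3a and bcl2fastq. Not given in the sources used here are the annotation release, the strand setting and how duplicates and reads with several matches were handled. Groups and replicates came from the labels, with 6 animals in each of 4 groups.

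Symbols were matched to the Ensembl gene identifiers of the deposited table through a separate reference list of gene names. Positions were taken from GENCODE M21. All 24 libraries entered a single fit with a mean for each group (edgeR 4.0.16 under R 4.3.3, TMM, filterByExpr with a minimum count of 10, quasi-likelihood F test, 20 residual degrees of freedom). Benjamini-Hochberg adjustment ran over all 14380 genes within each of 5 comparisons, and genes were called at an adjusted p under 0.05. The fit was also run on simulated counts with changes set only in wild type LPS libraries. That run checks the code, and no result here rests on it. CPM are counts divided by a library's total and scaled to 1000000, and exact intervals on summed counts cover counting error only. Alternatives were DESeq2 1.42.0, RLE size factors, no filter, fits of only the groups compared, a replicate block, and left-out libraries. The members and the pathway and marker lists were chosen with earlier results of these data known. Named genes are all members and the genes called in a pathway list, at most the 5 with the smallest p in wild type LPS against PBS, with uncalled genes named for their role. The gene control list holds 1 gene that is counted with it but not reported here.

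Same-numbered libraries deviated together little (correlations of -0.061 to 0.084), and the labels state no pairing, so replicate numbers were not taken as pairs. For knockout against wild type after LPS, the same-numbered library was the most alike for 4 of 6 replicates. In the other comparisons of 2 groups this held for 1 or 2 of 6.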

Additional observations from a re-analysis of the deposited data

Results flagged for a closer look

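In 40 sets of 6 libraries (10 genes in 4 groups), 2 single libraries lay far from the rest of their group. Chance alone sets apart about 5% of such groups. H2-Q4 was 3.99 CPM in replicate 3 of the wild type LPS group, against 0.325 to 1.55 CPM in the other 5. H2-T23 was 1.88 CPM in replicate 5 of the knockout LPS group, against 0.447 to 0.822 CPM in the other 5. These levels rest on 17 counts of H2-Q4 and 6 counts of H2-T23, neither gene passed the filter on low counts, and each shares part of its 3′ sequence with other genes. Neither library stood apart for H2-K1, H2-D1 or B2m.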

How the results depend on the processing

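All 418 recomputed LPS fold changes of the 7 tested members had the direction and call given above. Between genotypes, calls depended on the processing, and the cause was not tested. After PBS, 19 genes were called over all genes, against 88 with no filter, 33 with only the 2 groups, 39 with the replicate block, 36 without wild type LPS replicates 1 and 2, and 13 to 32 with a single library left out. After LPS, 151 genes were called, against 293 with no filter, 273 with the replicate block, 561 without wild type LPS replicates 1 and 2, and 72 to 289 with a library left out. Members called after LPS numbered 0, against 3 with no filter (H2-D1, B2m and H2-K1, adjusted p = 0.00037, 0.000805 and 0.00919), 2 with the replicate block (H2-D1 and B2m, adjusted p = 0.0353 and 0.0332), 3 without replicates 1 and 2, and 0 to 2 with a library left out. Pathway genes called after LPS numbered 0, against 3 with no filter, 1 with only the 2 groups (Calr), 3 with the replicate block, 4 without replicates 1 and 2 (Calr, Pdia3, Pirb and Ifngr1) and 0 to 3 with a library left out. The interaction called 1 gene, against 3 by DESeq2, 67 with no filter, 8 with the replicate block, 249 without replicates 1 and 2 (among them 1 pathway gene, Blmh, at -0.37), and 1 to 20 with a library left out. It called no member in any of these fits. Some small differences changed sign. Without replicates 1 and 2, knockout over wild type after LPS was -0.0383 for H2-M3 and -0.0021 for Tap1. With a library left out it ranged from -0.10 to 0.25 for H2-M3 and -0.0104 to 0.2569 for Tap2 after LPS. After PBS it ranged from -0.0984 to 0.0173 for H2-D1, -0.18 to 0.0043 for Tap2 and -0.0076 to 0.0696 for Tapbp, and the interaction ranged from -0.36 to 0.0368 for Tap1. By label, replicates share only a number, and 0 of 24 same-numbered pairs correlated over 0.1, so the block was not read as a pairing. Whether same-numbered libraries share an effect was not tested. Depth limits H2-Q4, H2-T23, H2-M3 and Nlrc5, with 45 to 184 counts over all libraries.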
